A study of Mus musculus with 6 samples.

Results

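The neuronal intermediate filament genes examined were Nefl, Nefm, Nefh, Ina and Prph, together with the related filament genes Nes and Vim. They were taken by gene symbol from the 47937 rows of the deposited table of read counts, and all 7 were found, each under 1 Ensembl gene identifier, and passed the filter on low counts that left 20006 genes for testing. The counts come from RNA sequencing of total RNA of dorsal root ganglia (DRGs), with 3 control and 3 Tlx3cko libraries, from mice of strain C57BL/6 aged about 2 months in both groups. The control genotype is labelled wild type, and the Tlx3cko genotype is labelled Tlx3f/f;SNS-cre, a Tlx3 allele flanked by loxP sites together with a Cre recombinase under the control of the Nav1.8 (Scn10a) gene. This Cre is active in most nociceptive neurons from late embryonic life. Which other cells of the ganglion it reached was not tested. The labels do not say whether each library came from 1 mouse or from several, and the ganglia of cervical, thoracic and lumbar levels were pooled.

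Intermediate filaments are the rope-like part of the cytoskeleton. In neurons, the light, medium and heavy neurofilament proteins (NF-L, NF-M and NF-H, encoded by Nefl, Nefm and Nefh) assemble with α-internexin (Ina) into neurofilaments, in which NF-L forms the core and the long tails of NF-M and NF-H project sideways, and their amount sets the calibre of axons. In DRGs, large myelinated neurons are rich in neurofilaments, whereas peripherin (Prph), a filament protein of a different class, marks mostly the small neurons with unmyelinated axons. Nestin (Nes) is best known from neural progenitors and is also made by vascular cells, and vimentin (Vim) is a filament of fibroblasts, endothelium and glia.

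All 7 genes encode the same kind of rod domain, and its last stretch is the best conserved part of the family. The 30 bases that encode it are shown because they tell how alike the genes are in this conserved stretch. Capitals mark the 15 bases that are identical in all 7 GENCODE M21 transcripts, read 5′ to 3′ on the coding strand.
Nefl: TACAGaAaaCTctTgGAaGgcGAagAgacc
Nefm: TACAGgAaaCTccTaGAgGggGAagAgacc
Nefh: TACAGaAagCTccTgGAaGgcGAagAgtgt
Ina: TACAGgAagCTccTgGAaGgtGAagAgacg
Prph: TACAGgAagCTacTgGAaGggGAggAgagc
Nes: TACAGgActCTgcTgGAgGctGAgaActct
Vim: TACAGgAagCTgcTgGAaGgcGAggAgagc

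Over these 30 bases the 21 pairs of genes matched at between 17 bases (Nefl and Nes) and 28 bases (Prph and Vim). The stretch also separates the genes by structure. In Nefl, Nefm, Nefh, Ina and Nes an exon junction falls after the fifth base, so that the stretch lies in exons 2 and 3 of Nefl-201, Nefm-201, Ina-201 and Nes-201 and in exons 3 and 4 of Nefh-201. In Prph-202 (chr15:99057447-99057476, exon 5) and Vim-201 (chr2:13580207-13580236, exon 6) it lies within a single exon of GRCm38. Over the whole transcripts, the longest run of identical bases between the transcripts of any pair was between 12 and 35 bases, and on the same strand no transcript of a different gene matched any of them over 100 bases or more at 98% identity. On the opposite strand there were such stretches. A total of 1108 exonic bases of Nefl lie under Nefm, in the last exon of the transcript Nefm-202 and not in Nefm-201, and 456 exonic bases of Ina lie under Nt5c2. Whether the counting used strand is not given in the sources used here, and reads from these bases cannot be assigned to either gene without it.

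Library totals ranged from 11458299 to 18775628 counts. Values below are normalized counts, that is counts scaled by edgeR's TMM factors (0.994 to 1.01) to the mean effective library size of 14970767, given as mean ± SD with n = 3 per genotype. The targeted gene Tlx3 (chr11:33200752-33203589, minus strand), which is targeted in the Nav1.8 lineage only, ran at 1973, 2256 and 1941 normalized counts for control and at 1652, 1380 and 1452 for Tlx3cko DRGs, with no overlap. The sexes were not balanced. Xist was read 591 and 493 times in the first and second control libraries and at most 2 times in the other 4, and Ddx3y 0 times in that pair and at least 273 times in the others. Control replicate 3 is thus the only control library like the Tlx3cko libraries, and for the 7 filament genes and the called genes of the other lists, a call that was lost against it alone is given as such. Tlx3, Nt5c2 and the genes of similar course were not tested against it alone. The test was the quasi-likelihood test of edgeR, with p adjusted over all genes tested and a threshold of 0.05. An exact permutation test of a single gene with 3 libraries against 3 cannot give a p below 0.1, so none is given.

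Nefm, Nefh, Nefl and Ina were higher in Tlx3cko DRGs past the threshold, and Prph, Nes and Vim did not pass the test. This makes 4 of 7 genes called, with increases of between 1.18-fold and 2.07-fold, whereas 0 of the 7 genes were lower past the threshold. Of all genes tested, 4.25% were called in either direction, 1.69% as higher in Tlx3cko DRGs and 2.56% as lower, and among the 3445 genes averaging 1000 or more normalized counts 2.96% were called higher. The median log2 fold change over the 7 genes was 0.23, beside a median of -0.0036 over all genes tested. In a bulk sample, more RNA per cell and more cells of a type cannot be told apart. The sexes were not balanced between the genotypes, and the part of sex in the values of the 7 genes was not tested. Against control replicate 3 alone, the log2 fold changes were 0.40 for Nefm, 0.36 for Nefh, 0.19 for Nefl and 0.97 for Ina. The Nefl call was lost in most fits with 1 library left out.

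Ina, which encodes α-internexin, a neurofilament subunit made early by developing neurons and later in smaller amounts, changed most among the 7 genes. It lies on the plus strand of chromosome 19 (chr19:47014698-47025327). The control libraries held 1235, 932 and 1184 normalized counts, and the Tlx3cko libraries 2395, 2220 and 2324. The lowest Tlx3cko library was well above the highest control, and the means were 1117 ± 162 and 2313 ± 88.1 (SD, n = 3). The log2 fold change was 1.05 with a standard error of 0.10 (adjusted p = 5.2e-05, edgeR). Leaving out any 1 library gave 0.94 to 1.12, past the threshold each time, and against control replicate 3 alone it was 0.97 (adjusted p = 0.000957, edgeR).

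The gene on the other strand at the end of Ina moved the same way. Nt5c2, which encodes a cytosolic nucleotidase, averaged 820 ± 23.0 normalized counts for control and 1264 ± 133 for Tlx3cko (SD, n = 3). Its log2 fold change was 0.62 ± 0.10 (SE, adjusted p = 0.00191, edgeR). The bases that both genes cover are 14.1% of the exonic length of Ina. Between the means, Ina gained 1196 normalized counts and Nt5c2 gained 443.6. The part of reads from the shared bases in either value was not tested.

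The promoters of Ina and Prph are shown because Ina passed the test and Prph, the other neuronal filament gene outside the neurofilament triplet, did not. RefSeq promoter windows (250 bases before to 50 after the start, GRCm38.p6) were matched for 4 of the 7 genes, namely Ina, Prph, Nes and Vim, and not for Nefl, Nefm and Nefh. Capitals mark TATAAA and GGGCGG on either strand, and both windows are on the plus strand, Ina at chr19:47014431-47014730 and Prph at chr15:99054924-99055223.
Ina: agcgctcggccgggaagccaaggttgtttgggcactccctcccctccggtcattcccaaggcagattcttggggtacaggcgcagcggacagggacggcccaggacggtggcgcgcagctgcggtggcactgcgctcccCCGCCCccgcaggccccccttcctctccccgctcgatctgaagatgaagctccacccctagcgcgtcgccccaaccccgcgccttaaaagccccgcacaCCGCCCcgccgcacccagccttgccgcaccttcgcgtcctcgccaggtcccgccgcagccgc
Prph: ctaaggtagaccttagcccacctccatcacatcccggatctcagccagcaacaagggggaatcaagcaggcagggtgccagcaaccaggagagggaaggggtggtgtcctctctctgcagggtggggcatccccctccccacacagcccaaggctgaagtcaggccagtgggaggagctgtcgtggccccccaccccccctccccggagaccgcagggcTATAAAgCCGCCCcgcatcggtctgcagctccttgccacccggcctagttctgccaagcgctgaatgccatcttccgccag

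TATAAA, the core of a TATA box, occurred once in the Prph window and not in that of Ina, and 13.6% of the 32851 promoter windows hold it. GGGCGG, the core of a GC box, occurred at 2 places for Ina and at 1 for Prph, and 35.7% of all windows hold it. TAATTA, a core that many homeodomain proteins bind, was in neither window and is in 5.29% of all windows. The GC content was 71.7% for Ina and 64.7% for Prph. These matches describe the letters of the windows and show no binding.

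Nefm, which encodes NF-M, had the highest mean count of all 20006 genes tested. On the minus strand of chromosome 14 (chr14:68082590-68124846), it reached 180482, 181905 and 181550 normalized counts for control and 213791, 257310 and 248938 for Tlx3cko DRGs. The controls lay within a narrow band, the Tlx3cko libraries all lay above it, and Tlx3cko replicate 1 was closest to the controls. The means were 181313 ± 741 and 240013 ± 23092 (SD, n = 3), a log2 fold change of 0.40 with a standard error of 0.07 (adjusted p = 0.0047, edgeR). The value moved between 0.36 and 0.48 when each library was left out in turn, always past the threshold. Against control replicate 3 alone it was 0.40, and the call was lost (adjusted p = 0.0588, edgeR). Without any scaling, Nefm took 1.21% to 1.22% of all counts in the control libraries and 1.43% to 1.71% in the Tlx3cko libraries.

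Nefh, which encodes NF-H, the heavily phosphorylated subunit that antibodies to myelinated DRG neurons commonly detect, rose by a similar factor. Its normalized counts (chr11:4938754-4948064, minus strand) were 22431, 21468 and 21845 for control, and 27817, 29395 and 27018 for Tlx3cko DRGs. Each genotype formed a tight group and the groups were well apart, with means of 21915 ± 485 and 28077 ± 1210 (SD, n = 3). The log2 fold change was 0.36 with a standard error of 0.06 (adjusted p = 0.00532, edgeR). It stayed between 0.33 and 0.39 and past the threshold with each library left out, and against control replicate 3 alone (0.36, adjusted p = 0.0456, edgeR). The annotation places no other gene on the exons of Nefh.

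Nefl, which encodes NF-L, the subunit on which the others assemble, rose by the smallest factor of the 4 called genes. It lies on the plus strand next to Nefm (chr14:68083863-68089095) and yielded 76361, 78627 and 80549 normalized counts for control and 92748, 91404 and 92711 for Tlx3cko DRGs. The groups did not overlap, and the means were 78512 ± 2096 and 92288 ± 765 (SD, n = 3). The log2 fold change was 0.23 with a standard error of 0.06 (adjusted p = 0.0386, edgeR). Leaving out 1 library ended this call in 5 of 6 cases, all but that without control replicate 3, with a highest adjusted p of 0.194 (edgeR, without Tlx3cko replicate 3), and against control replicate 3 alone (log2 fold change 0.19, adjusted p = 0.204, edgeR). Nefm-202 covers 32.8% of the exonic bases of Nefl, and the part of reads from Nefm in the Nefl value was not tested.

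**Figure D1:**
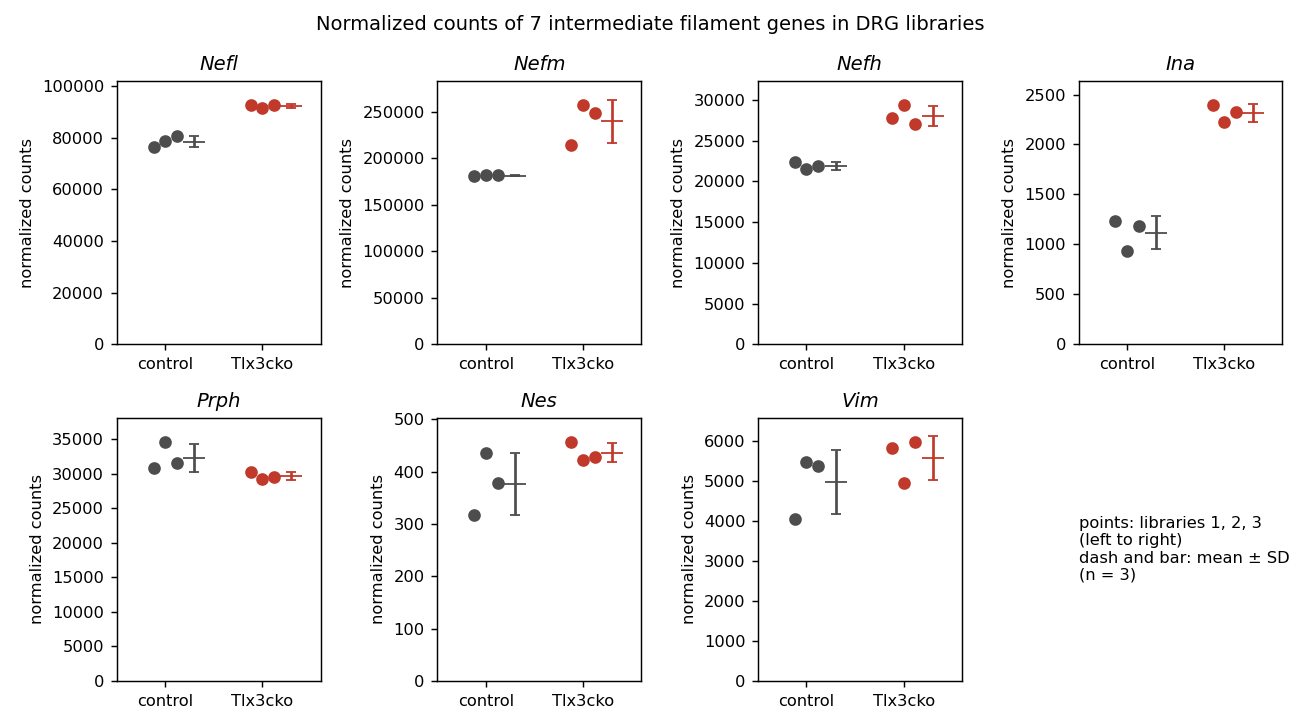
Normalized counts (vertical axis, from 0) of each of the 7 filament genes in the 3 control (grey) and 3 Tlx3cko (red) libraries, with the mean and SD of each group beside the points. Nefl, Nefm, Nefh and Ina have every Tlx3cko library above every control, Prph has every Tlx3cko library below, and the groups overlap for Nes and Vim.

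Prph, which encodes peripherin, did not pass the test. Its normalized counts (chr15:99055174-99058978, plus strand) were 30808, 34681 and 31625 for control, and 30274, 29235 and 29611 for Tlx3cko DRGs. The Tlx3cko libraries were all below the controls, though the highest of them and the lowest control were close. The means were 32371 ± 2042 and 29707 ± 526 (SD, n = 3). The log2 fold change was -0.12 with a standard error of 0.07 and a 95% interval from -0.27 to 0.02 (adjusted p = 0.444, edgeR). The upper end of this interval lies under the lower ends of the intervals of Nefl (0.11), Nefh (0.22), Nefm (0.25) and Ina (0.83). The differences between genes were not tested. Without control replicate 2, the highest library, the log2 fold change of Prph was -0.07.

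Nes was low throughout, at 317, 436 and 378 normalized counts for control and 457, 423 and 428 for Tlx3cko DRGs, from between 294 and 475 counts per library. Control replicate 1 was the lowest library, and control replicate 2 lay within the range of the Tlx3cko libraries. The log2 fold change was 0.21 with a standard error of 0.13 and an interval from -0.07 to 0.49 (adjusted p = 0.534, edgeR), an interval that includes the value measured for Nefm. Nes lies on the plus strand of chromosome 3 (chr3:87971078-87980451).

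Vim (chr2:13573927-13582826, plus strand) gave 4054, 5478 and 5372 normalized counts for control and 5806, 4944 and 5976 for Tlx3cko DRGs. The groups overlapped, since Tlx3cko replicate 2 was under control replicates 2 and 3. The log2 fold change was 0.17 with a standard error of 0.11 and an interval from -0.07 to 0.41 (adjusted p = 0.578, edgeR). Without control replicate 1, the lowest library for Vim and for Nes, the log2 fold changes were 0.04 for Vim and 0.10 for Nes. Vim had 0.25 without Tlx3cko replicate 2 and 0.05 against control replicate 3 alone, and Nes had 0.32 without control replicate 2, none past the threshold.

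Counting only whether the groups overlapped, 4 genes were separated upwards and 1, Prph, downwards. Among all genes tested, 19.7% did not overlap between the genotypes, 8.87% separated upwards and 10.8% downwards.

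**Figure D2:**
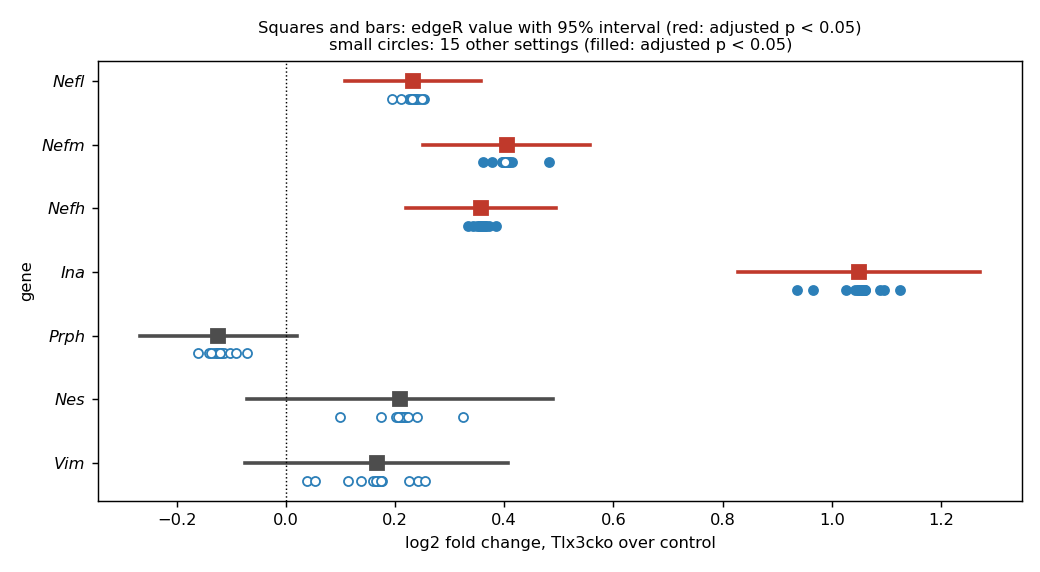
Log2 fold change of Tlx3cko over control (horizontal axis) for each filament gene, with squares and bars for the edgeR value and its 95% interval and small circles for 15 other settings. Ina lies near 1 in every setting, Nefm and Nefh between 0.33 and 0.48, Nefl between 0.19 and 0.25 with several open circles (adjusted p of 0.05 or more), and the intervals of Prph, Nes and Vim include 0.

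Levels of different genes are compared here only per length, as CPM (counts scaled to a common library total) per kb of annotated exon. In control DRGs the order was Nefm (2095 ± 8.56), Nefl (1552 ± 41.4), Prph (1082 ± 68.2), Nefh (366.5 ± 8.12), Vim (70.0 ± 11.2), Ina (23.0 ± 3.35) and Nes (3.93 ± 0.617; SD, n = 3 each). In Tlx3cko DRGs the order was the same, with 2773 ± 267, 1824 ± 15.1, 992.6 ± 17.6, 469.6 ± 20.2, 78.5 ± 7.79, 47.7 ± 1.82 and 4.54 ± 0.194. No gene overlapped its neighbour in this order in either genotype, also with the length of the longest transcript in place of all exons. The steps were steep. Nefm, Nefl, Prph and Nefh, the filaments of mature neurons, stood far above Vim, and Ina lay below Vim in both genotypes.

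**Figure D3:**
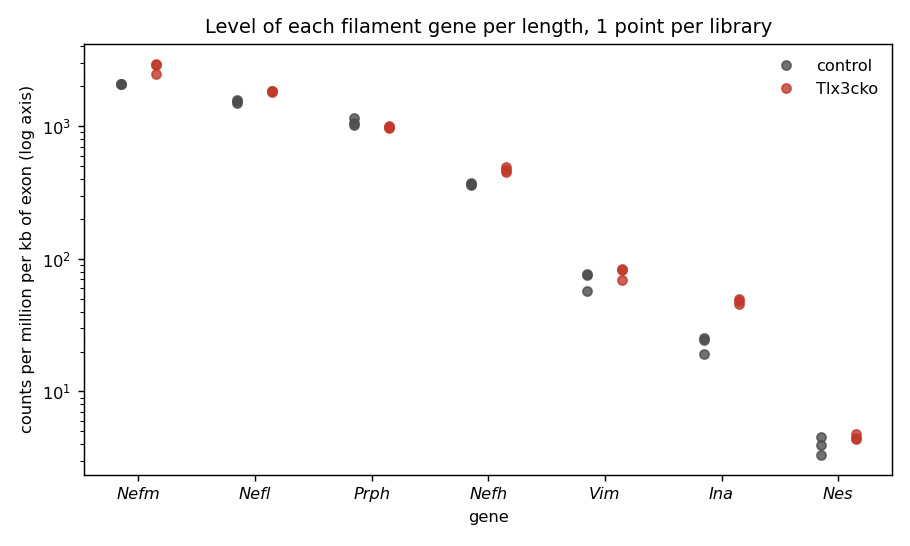
Level of each filament gene per length (CPM per kb of exon, log axis) in 3 control (grey) and 3 Tlx3cko (red) libraries, 1 point per library, ordered by the control mean. The order from Nefm at 2095 to Nes at 3.93 in control DRGs is the same in Tlx3cko DRGs, and the gap between the genotypes is widest for Ina.

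As shares of the per-length total of the 7 genes, Nefm held 40.4% ± 0.594 in control and 44.7% ± 2.62 in Tlx3cko DRGs, with no overlap. Prph went from 20.8% ± 0.992 to 16.1% ± 0.922 of this total (SD, n = 3), while Ina went from 0.444% ± 0.0713 to 0.772% ± 0.0586. The share of Nefl was between 29.5% and 30.5% in control and between 28.4% and 31.0% in Tlx3cko libraries, which overlap. These shares are a description with no test, and they move together, since they add up to the same total.

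Ratios within a library do not depend on its scaling. The counts of Nefm over those of Nefl were 2.36, 2.31 and 2.25 in control and 2.31, 2.82 and 2.69 in Tlx3cko libraries, and those of Nefh over Nefl were 0.294, 0.273 and 0.271 against 0.300, 0.322 and 0.291, so that both ratios overlapped between the genotypes. Ina over Nefl did not overlap, with 0.0162, 0.0118 and 0.0147 in control and 0.0258, 0.0243 and 0.0251 in Tlx3cko libraries.

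Relative to Prph, the counts of Nefl, Nefm, Nefh and Ina were each higher in every Tlx3cko library than in any control. Nefh over Prph, genes often used as labels of myelinated and unmyelinated neurons, was 0.728, 0.619 and 0.691 in control and 0.919, 1.01 and 0.912 in Tlx3cko libraries. Nefl over Prph went from 2.43 ± 0.146 to 3.11 ± 0.0377 and Nefm over Prph from 5.61 ± 0.325 to 8.09 ± 0.912 (SD, n = 3). Ina over Prph went from 0.0348 ± 0.00699 to 0.0778 ± 0.00168. These separations follow from those of the single genes given above and add nothing independent of them. No test was run on these ratios.

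**Figure D4:**
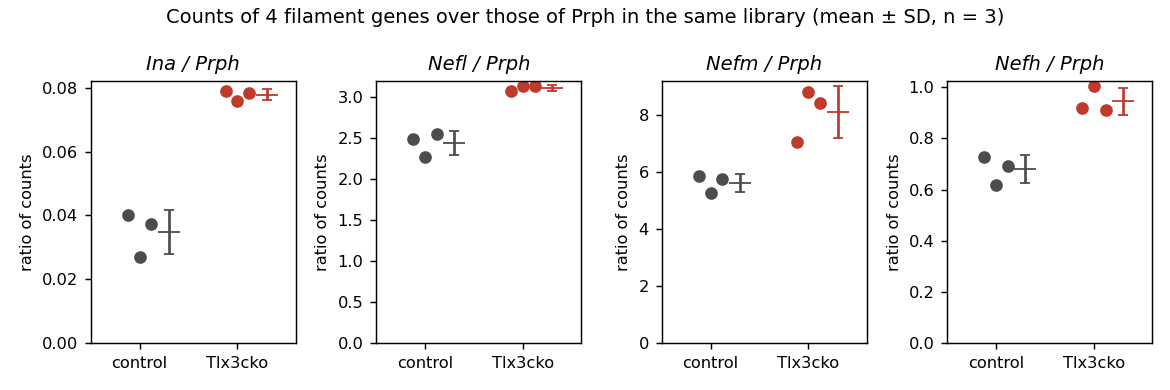
Counts of Ina, Nefl, Nefm and Nefh divided by those of Prph in the same library (vertical axes, from 0), for 3 control (grey) and 3 Tlx3cko (red) libraries, with mean and SD beside the points. Every Tlx3cko library lies above every control in each panel, and the Ina ratio went from a mean of 0.0348 to 0.0778.

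Among 18 genes that act on neurofilaments, the linkers, motors, kinases and turnover factors, 2 rose, 0 fell and 16 did not pass the test, with a median log2 fold change of 0.10. Hspb1, which encodes a small heat shock protein that helps neurofilaments assemble, rose from 2196 ± 173 to 2948 ± 291, by 0.42 ± 0.09 (SE) on the log2 scale (adjusted p = 0.0179, edgeR). It lost this call without control replicate 1 (adjusted p = 0.0559), Tlx3cko replicate 2 (0.105) or Tlx3cko replicate 3 (0.0703), and against control replicate 3 alone (0.231, all edgeR).

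The carriers and linkers gave smaller values. Kif5a, the kinesin heavy chain that moves neurofilaments down the axon, had a log2 fold change of -0.01 with an interval from -0.15 to 0.13, and Dync1h1, the dynein heavy chain that moves them back, had 0.17 with an interval from -0.04 to 0.37. The log2 fold changes of the cross-linkers Dst and Plec were 0.20 and 0.21. None of these 4 passed the test, and Dst and Plec were named after their values were seen.

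Of 10 further intermediate filament genes that could be tested, 0 were called by edgeR, DESeq2 or limma-voom, and 1 had an unadjusted p under 0.05. Synm, which encodes synemin, a filament protein of glia and muscle, averaged 7775 ± 451 normalized counts for control and 7840 ± 560 for Tlx3cko, and its log2 fold change was 0.01, with an interval from -0.15 to 0.18. Lmna, which encodes the nuclear lamins A and C, also had 0.01, with an interval from -0.15 to 0.17. Krt18 had 0 counts in every library and was not tested.

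Of 15 microtubule genes, 2 rose, 2 fell and 11 did not pass the test, with a median log2 fold change of 0.09. Map2, a microtubule-associated protein of dendrites and cell bodies, rose from 1561 ± 213 normalized counts to 2288 ± 110, by 0.55 ± 0.10 (SE) on the log2 scale (adjusted p = 0.00533, edgeR). Stmn1, a regulator of tubulin assembly, rose by 0.44 ± 0.08 (SE) on the log2 scale (adjusted p = 0.00529, edgeR).

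In the other direction, the tubulin gene Tubb2b fell from 5344 ± 432 normalized counts to 3257 ± 264, a log2 value of -0.71 ± 0.09 (SE, adjusted p = 0.000259, edgeR), and Tppp3, a tubulin-polymerizing protein, fell with a log2 value of -0.34 ± 0.07 (SE, adjusted p = 0.0183, edgeR). The Tppp3 call was lost without control replicate 2 (adjusted p = 0.0868), Tlx3cko replicate 2 (0.124) or Tlx3cko replicate 3 (0.111), and against control replicate 3 alone (0.243, all edgeR). The abundant genes Map1b and Tuba1a had values of 0.29 and -0.02 and did not pass the test.

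**Figure D5:**
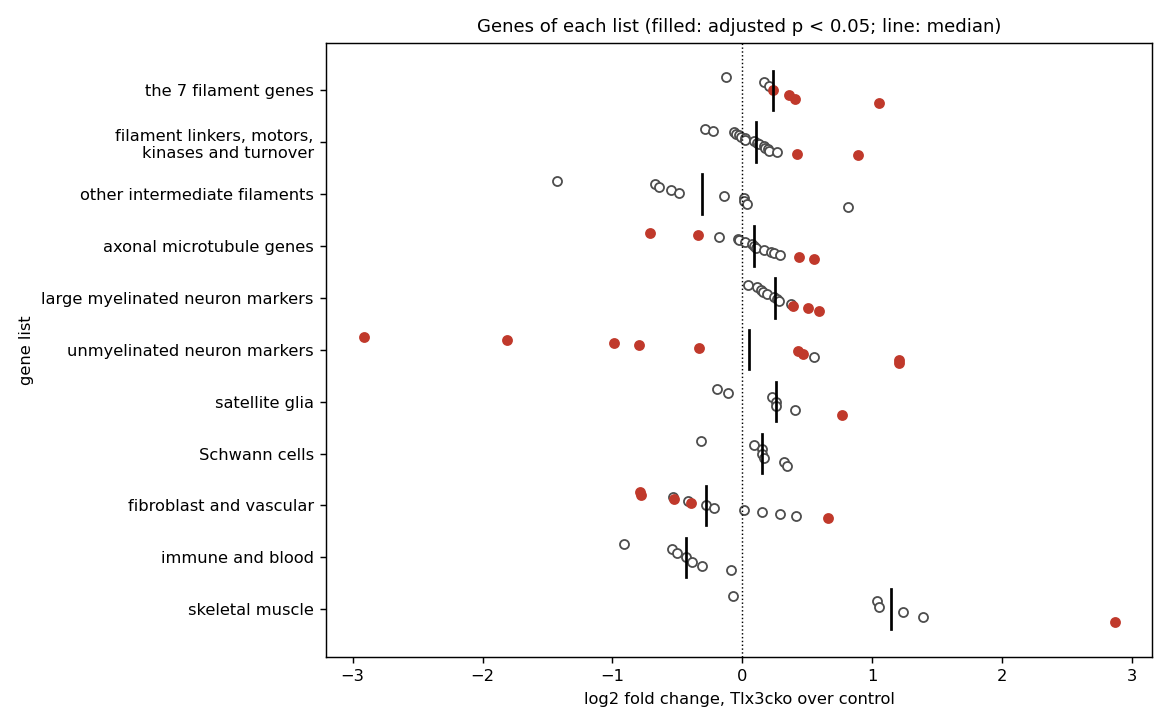
Log2 fold change of Tlx3cko over control (horizontal axis) of each tested gene of the 7 filament genes and of 10 other lists, 1 circle per gene, filled where the adjusted p was under 0.05, with a line at the median of each list. Of the filament genes 6 of 7 lie to the right of 0, as do 12 of 12 markers of large myelinated neurons, 6 of 7 of Schwann cells, 5 of 7 of satellite glia and 5 of 6 of skeletal muscle. So do 10 of 15 microtubule genes and 12 of 18 genes that act on neurofilaments, and the markers of unmyelinated neurons lie 5 on each side. Fewer lie to the right among other intermediate filaments (4 of 10), fibroblast and vascular markers (5 of 13) and immune and blood markers (0 of 7). The median over all genes tested was -0.0036.

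Markers of the neuron classes that carry these filaments are given beside them. Of 12 markers of large myelinated neurons, 3 (Pvalb, Calb1 and Cntnap2) rose, 0 fell and 9 did not pass the test. All 12 log2 fold changes were above 0, and the median was 0.25, beside -0.0036 over all genes tested. The most abundant, Thy1 and Kcna2, had log2 fold changes of 0.11 and 0.04. The summed level of the 12 genes was 34019 to 39218 normalized counts in control and 41035 to 41976 in Tlx3cko libraries, with no overlap. Each of the 3 calls was lost without control replicate 2 or 3, and those of Calb1 and Cntnap2 also without Tlx3cko replicate 2 or 3, with highest adjusted p of 0.0592 for Pvalb, 0.155 for Calb1 and 0.13 for Cntnap2 (edgeR). Cntnap2 also lost its call without Tlx3cko replicate 1 (adjusted p = 0.0554, edgeR) and, at the threshold itself, against control replicate 3 alone (adjusted p = 0.05, edgeR). Of 10 markers of unmyelinated neurons, 4 rose (among them Trpv1, Calca and Scn10a), 5 fell (Th, Mrgprd, P2rx3, Scn11a and Ret) and 1 did not pass the test, with a median of 0.05. The summed level of these 10 genes was also higher, at 75997 to 84425 normalized counts in control and 91820 to 95233 in Tlx3cko libraries, with no overlap. The Ret call was lost without control replicate 2 (adjusted p = 0.136), control replicate 3 (0.133), Tlx3cko replicate 2 (0.183) or Tlx3cko replicate 3 (0.186, all edgeR). The Cre of the Tlx3cko mice is under the control of the Scn10a gene, and the part of this Cre in the Scn10a value was not tested. The part of the number of cells of each class in the values of the neurofilament genes and of Prph was not tested.

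Markers of other cells, some of which make Vim or Nes, are given by list. Of 7 satellite glia markers 1 (Cadm2) rose and 0 fell, and the most abundant, Glul, had a log2 fold change of 0.26, with a summed level of 11805 to 12781 normalized counts in control and 13683 to 14341 in Tlx3cko libraries. The Cadm2 call was lost without control replicate 2 or 3 or Tlx3cko replicate 1 or 3, with a highest adjusted p of 0.0868 (edgeR). Of 7 Schwann cell markers 0 were called by edgeR, 2 by DESeq2 and 1 by limma-voom, 3 had an unadjusted p under 0.05, Pmp22, an abundant one, had a log2 fold change of -0.31, and the summed levels overlapped (35177 to 42609 and 37928 to 43058). Of 13 fibroblast and vascular markers 4 fell (Pdgfra, Col3a1, Col1a1 and Dcn) and 1, the endothelial gene Pecam1, rose, the pericyte gene Rgs5 had a log2 fold change of -0.28 and did not pass the test, with summed levels of 7265 to 8261 in control and 6226 to 6444 in Tlx3cko libraries. Each of these 5 calls was lost without 1 library or another. Without control replicate 2 those of Col1a1, Col3a1 and Dcn were lost, without control replicate 1 those of Dcn and Pdgfra, and without control replicate 3 all but that of Dcn. Without Tlx3cko replicate 1 those of Col1a1, Col3a1 and Pdgfra were lost, without Tlx3cko replicate 2 all but that of Col3a1, and without Tlx3cko replicate 3 all but that of Col1a1. The highest adjusted p was 0.155 for Col1a1, 0.0893 for Col3a1, 0.201 for Dcn, 0.154 for Pdgfra and 0.0991 for Pecam1 (edgeR). Against control replicate 3 alone the calls of Col1a1 (adjusted p = 0.128), Dcn (0.452), Pdgfra (0.0966) and Pecam1 (0.0588, all edgeR) were lost. Of 7 immune and blood markers 0 were called by edgeR, DESeq2 or limma-voom and 2 had an unadjusted p under 0.05. Its most abundant genes, the globins Hba-a1 and Hbb-bs, had log2 fold changes of -0.50 and -0.39, with summed levels for the list of 3023 to 4675 and 2267 to 3292. Of 6 skeletal muscle markers 1 (Myh4) rose and 0 fell, and Acta1 had a log2 fold change of 1.04 without passing the test, with summed levels of 104 to 1839 in control and 1533 to 2845 in Tlx3cko libraries, which overlap. DESeq2 did not call Myh4 (adjusted p = 0.0626), nor did edgeR when control replicate 2 was left out (adjusted p = 0.0611). Median log2 fold changes were 0.26 for satellite glia, 0.15 for Schwann cell, -0.28 for fibroblast and vascular, -0.43 for immune and blood and 1.15 for skeletal muscle markers. The part of these cells in the values of Vim and Nes was not tested.

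The genes with the most similar course over the 6 libraries were found from the root-mean-square difference of log2 levels, each gene centred on its own mean. For the mean of Nefl, Nefm and Nefh, the nearest of 13273 genes were Popdc3 (difference 0.0322), Nrcam (0.0325) and Tspan13 (0.0342). Nrcam, which encodes an adhesion molecule of the axon found at nodes of Ranvier, averaged 1193 normalized counts for control and 1505 for Tlx3cko DRGs. For Prph the nearest were Lrpprc (0.0180), Ostm1 (0.0191) and Prkcsh (0.0198). For Ina, which was added to this comparison after its values had been seen, they were Dock4 (0.0649), Gpr149 (0.0679) and Dab1 (0.0690). The 6 libraries include both genotypes, so the measure takes in the difference between them as well as the spread within each.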

How the data were processed

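Total RNA of control and Tlx3cko DRGs (3 libraries each) was sequenced as paired-end reads on an Illumina HiSeq instrument. The authors deposited raw read counts per gene without normalization; the submitters' processing notes name STAR 2.5.2a and mm10, and the counting program, annotation and strand setting are not given in the sources used here. Gene names, lengths and positions came from GENCODE M21 (GRCm38).

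The 20006 genes whose counts summed to 10 or more were fitted with edgeR 4.0.16 in R 4.3.3 (TMM, glmQLFit and glmQLFTest, Benjamini-Hochberg adjusted p under 0.05), and 851 were called. Standard errors were derived from each log2 fold change and its F value. DESeq2 1.42.0, limma 3.58.1 (voom), other scalings and filters, a replicate block and left-out libraries were alternatives. Sequences were compared with blastn 2.17.0+. The scripts were checked on simulated counts. Replicate libraries differed by more than counting noise (chi-square per degree of freedom of 4.32 to 10.1). The p-values weigh the difference between the genotypes against the spread between these libraries. How many mice each library holds is not given. The 7 genes and all lists were chosen with earlier results of these data known. The named genes were the 7, the called and most abundant genes of each list, Tlx3, and those of nearest course (mean of at least 50 normalized counts); others such as Nt5c2 were named after their values were seen. A few genes of the lists that this rule would name are counted and not reported here by name.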

Additional observations from a re-analysis of the deposited data

How the results depend on the processing

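Ina and Nefh kept their direction and their call in all 15 alternatives, and Nefm in 14. Prph, Nes and Vim kept their sign and stayed short of the threshold in all 15. Leaving out 1 library at a time, 3 to 4 of the 7 filament genes were called, between 16 and 29 genes of the 10 companion lists (25 with all libraries), and between 488 and 938 of all genes (851 with all libraries), and the log2 fold change of Nefl ranged from 0.21 to 0.25. All genes called numbered 488 without Tlx3cko replicate 2, 512 without Tlx3cko replicate 3 and 530 without control replicate 2. Companion list genes called numbered 16 without Tlx3cko replicate 2 and 16 without Tlx3cko replicate 3. Without a filter on low counts, 1529 genes and 41 companion list genes were called. Against control replicate 3 alone, whose spread was taken from the Tlx3cko libraries, 546 genes and 2 of the 7 filament genes were called, with log2 fold changes of 0.19 for Nefl and 0.40 for Nefm. With the replicate block, the log2 fold change of Nefl was 0.23 and its call was lost (adjusted p = 0.0925, edgeR). The calls of Ret (0.0671) and Pdgfra (0.0561, both edgeR) were lost too. Deviations of same-numbered libraries correlated at -0.12, -0.03 and -0.09. Libraries of different numbers were not compared in this way, so whether the numbers pair the libraries is not settled. With the longest transcript as length, which for Nefm is 3680 bp in place of 5782 bp, the share of Nefm was 50.6% in control and 55.1% in Tlx3cko DRGs. The cause of the other shifts was not tested. Nes had the lowest counts of the 7 genes, at 294 to 475 per library.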
